A study of Homo sapiens with 132 samples.

Results

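The early transcriptional effect of afatinib in the presence of trastuzumab was measured in MKN1 cells, an established human gastric cancer cell line. Of the 132 RNA sequencing libraries of the series, 6 were compared: those labelled as cell line MKN1, time 4 h and treatment Tra + Afa (3 replicates) against those labelled MKN1, 4 h and Tra (3 replicates). All genes were examined, and the replicate number in the titles was used as the pair. The series covers gastric cancer cell lines treated with EGF, cetuximab, trastuzumab, afatinib or combinations for 4 h or 24 h, in biological triplicates. Cells of both groups were grown in RPMI medium with fetal calf serum and received 5 µg/ml trastuzumab, and the Tra + Afa cells additionally received 0.5 µM afatinib. Afatinib was dissolved in DMSO and no label gives DMSO to the Tra cells, so afatinib and its solvent cannot be told apart in these libraries. A single cell line was used, so the 3 replicates stand for 3 cultures of 1 line and not for different tumours. Reference groups from the same line were untreated cells, cells treated with 0.5 µM afatinib alone, cells treated with 5 ng/ml EGF (each 3 replicates, 4 h), and the Tra + Afa and Tra groups at 24 h (each 3 replicates).

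EGFR and HER2 (ERBB2) are receptor tyrosine kinases of the ERBB family. Ligand binding activates EGFR. Active receptors signal through RAS, RAF, MEK and ERK to immediate early genes such as EGR1 and FOS. In turn, they signal to feedback inhibitors of the same cascade, among them dual specificity phosphatases (DUSP) and Sprouty proteins (SPRY). Trastuzumab is an antibody against the extracellular part of HER2. Afatinib is a small molecule that binds covalently to kinase domains of ERBB receptors, among them those of EGFR and HER2.

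After 4 h with afatinib, trastuzumab treated MKN1 cells had lower levels of several feedback inhibitors of ERK signaling and immediate early transcription factors and of the EGFR ligands AREG, EREG and HBEGF. SPRY4, DUSP6 and EGR1 retained 6.30%, 7.22% and 7.64% of their level under trastuzumab alone. Of 19815 genes tested, 169 were called, meaning that the log2FC exceeded 1 in size and the adjusted p (Benjamini-Hochberg) was below 0.05 in edgeR's quasi-likelihood test with the replicate number as block (0.853% of the genes tested). Of these, 116 were called lower (0.585%) and 53 were called higher (0.267%). At an adjusted p below 0.05 alone, 1307 genes were lower (6.6%) and 852 were higher (4.3%), with a median absolute log2FC of 0.36. Without the replicate block, 125 genes were called, all of them among the 169 and 27 of them higher, and 610 in place of 2159 genes had an adjusted p below 0.05. The median log2FC of all genes tested was 0.00. With libraries scaled by their totals alone, 50.75% of the called genes were higher in place of 31.4%, and the median log2FC of all genes was 0.09.

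The genes called lower and those called higher differed in their level. The median of the mean log2 CPM (CPM are read counts scaled to a common library size) over the 6 libraries was 3.11 for the genes called lower, -1.55 for those called higher and 2.93 for all genes tested. A mean log2 CPM above 1 was found for 81 of the genes called lower and for 5 of those called higher. In 7 of the genes called higher, no trastuzumab library held more than 3 counts, and no fold change is given for them. By the annotation, 97 of the 116 genes called lower and 21 of the 53 called higher were protein coding. Of the 169 genes, 168 moved the same way in all 3 same-numbered pairs. The 2 groups did not overlap for 160 of the 169 (94.7%), against 17.8% of all genes tested. The same 6 libraries selected the 169 genes, which favours both counts. The plot of change against level shows the levels of the called genes.

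**Figure D1:**
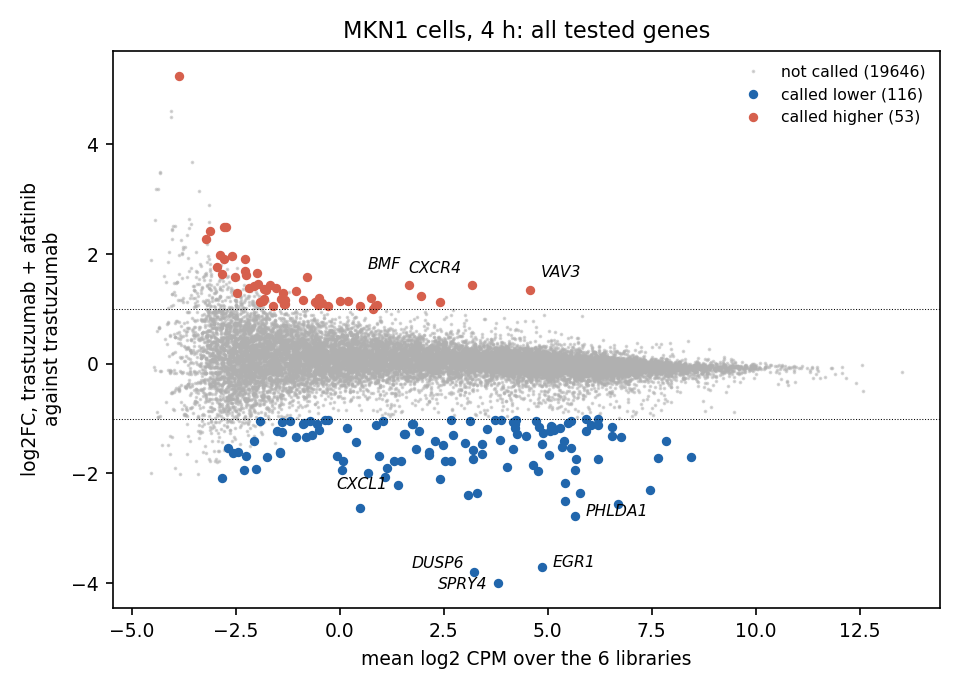
Mean log2 CPM over the 6 libraries (x axis) against the log2FC of trastuzumab + afatinib over trastuzumab at 4 h (y axis) for the 19815 genes tested, with 116 genes called lower in blue, 53 called higher in orange and the remaining genes in grey. Dotted lines mark a log2FC of -1 and 1. SPRY4, DUSP6 and EGR1 lie lowest among the genes called lower, while most genes called higher lie at the left, at low counts.

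Total counts of the 6 libraries ranged from 40788012 to 55067234, at which 3 counts correspond to 0.0545 to 0.0736 CPM. The CPM values of the cell type markers were scaled by these totals alone, unlike their log2FC values, which come from the edgeR fit. Among the epithelial markers, all 7 were detected at 1 CPM or more. KRT8, an epithelial keratin, was at 10820 to 12190 CPM, whereas the epithelial cadherin CDH1 was at 1.16 to 2.17 CPM. The summed level of the 7 epithelial markers was 19670 to 21460 CPM under trastuzumab and 18650 to 20150 CPM after afatinib was added. The 5 immune markers summed to 4.03 to 5.32 and 4.43 to 5.38 CPM, respectively, with the T cell marker CD3E at 0 in all 6 libraries. CD14 made up most of this sum at 3.45 to 4.54 CPM, and ITGAM was higher with afatinib (log2FC 0.78, adjusted p = 0.0125). Of the epithelial markers, KRT7 was lower (log2FC -0.33, adjusted p = 0.004). The 3 endothelial markers summed to 7.07 to 15.8 and 5.57 to 9.83 CPM, and PECAM1 among them was lower (log2FC -0.71, adjusted p = 0.000136). The 5 fibroblast markers summed to 79.1 to 108.8 and 87.9 to 113.3 CPM, of which LUM accounted for 66.9 to 98.7 CPM. The part of these markers in the results was not tested.

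Promoter windows were taken for SPRY4, DUSP6, EGR1 and PHLDA1, which had the largest decreases among the named genes. The windows of DUSP6 and PHLDA1 overlapped annotated untranslated regions and are not printed. Both held none of the motifs listed below. The printed genes, EGR1 and SPRY4, belong to the immediate early and the feedback group. Each sequence holds the 250 bases before the RefSeq transcription start on GRCh38.p14, 5′ to 3′ on the strand of the gene, and capitals mark CArG boxes, the binding motif of serum response factor (SRF), which directs many immediate early genes together with ETS domain partners. The EGR1 window is chr5:138465229-138465478 on the plus strand and the SPRY4 window is chr5:142324248-142324497 on the minus strand. The SPRY4 window lies inside the span that GENCODE gives for this gene. It does not cover the bases before the GENCODE start, which lies further upstream.
EGR1: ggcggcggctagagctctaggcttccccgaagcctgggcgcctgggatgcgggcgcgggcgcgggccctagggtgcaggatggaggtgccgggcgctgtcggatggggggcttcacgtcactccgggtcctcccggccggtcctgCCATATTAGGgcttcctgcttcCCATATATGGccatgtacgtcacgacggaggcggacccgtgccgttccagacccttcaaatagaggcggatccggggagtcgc
SPRY4: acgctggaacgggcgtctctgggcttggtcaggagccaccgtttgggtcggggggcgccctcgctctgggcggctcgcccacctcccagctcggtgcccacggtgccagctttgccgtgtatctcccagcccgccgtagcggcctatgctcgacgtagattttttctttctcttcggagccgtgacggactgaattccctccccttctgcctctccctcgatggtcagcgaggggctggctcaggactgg

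Relative to the start, the CArG boxes of EGR1 span positions -105 to -96 and -83 to -74. The SPRY4 window held none of the motifs searched on either strand, which were the CArG box, the cAMP response element TGACGTCA, the AP-1 site TGANTCA and the ETS site CCGGAAG. RefSeq promoters were matched for 70 of the 116 genes called lower, 25 of the 53 called higher and 12179 of the genes tested. The AP-1 letters were present in 10 of the 70 promoters (14.3%), in 2 of the 25 (8.0%) and in 4.66% of the promoters of all genes tested. The ETS letters were present in 4 of the 70 promoters (5.71%) and in 13.6% of those of all genes tested, and TGACGTCA in 4 of the 70 (5.71%) against 2.55%. A CArG box was found in 1 of the 70 (1.43%), that of EGR1, against 1.02%. These shares describe letters in a window and do not show binding.

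Feedback inhibitors of the ERK cascade held the 2 largest decreases among the named genes. SPRY4 (ENSG00000187678, chr5:142310427-142326455), a Sprouty protein that inhibits receptor signaling to RAS and RAF, was at 54.3, 56.1 and 55.7 CPM in the trastuzumab libraries 1, 2 and 3 and at 3.02, 4.18 and 3.27 CPM in the corresponding trastuzumab + afatinib libraries. All 3 pairs decreased, and the lowest trastuzumab library lay far above the highest trastuzumab + afatinib library. The log2FC was -3.99 ± 0.31 (SE, n = 3 per group, adjusted p = 7.97e-11). DUSP6 (ENSG00000139318, chr12:89347232-89353271), the cytoplasmic phosphatase of ERK, was at 30.7, 34.5 and 40.4 CPM under trastuzumab and at 1.98, 3.27 and 2.34 CPM after afatinib was added. Here, too, the groups did not overlap, with a log2FC of -3.79 ± 0.32 (adjusted p = 2.45e-10). DUSP4 (ENSG00000120875, chr8:29333064-29350668), a nuclear phosphatase of MAP kinases, decreased from 100.1, 110.2 and 97.2 CPM to 17.2, 22.3 and 14.9 CPM, without overlap (log2FC -2.51 ± 0.20, adjusted p = 7.92e-11).

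DUSP1 was not among the genes tested. Of the 10 DUSP genes tested, 5 were called lower and 0 were called higher. Their median log2FC was -1.02 against 0.00 over all genes tested. Besides DUSP6 and DUSP4, the genes called lower were DUSP5 (log2FC -1.56), DUSP10 (-1.32) and DUSP2 (-1.10). DUSP7 had an adjusted p of 3.77e-08 at a log2FC of -0.94, and DUSP16, a phosphatase of JNK and p38, was the exception with a higher level (log2FC 0.42, adjusted p = 0.00256). DUSP8, DUSP9 and DUSP14 did not pass the test and lay between -0.17 and 0.14. Of the 7 Sprouty and SPRED genes, which inhibit RAS to RAF signaling, 5 were called lower and 0 higher, with a median log2FC of -1.14. In addition to SPRY4, these were SPRY2 (-1.45), SPRY1 (-1.28), SPRED1 (-1.14) and SPRED2 (-1.09), whereas SPRY3 was at 0.17 (adjusted p = 0.583) and SPRED3 at -0.19 (adjusted p = 0.373). Feedback at the receptor itself was represented by ERRFI1 (MIG6), which binds and inhibits the EGFR kinase domain. ERRFI1 was at 66.2, 72.2 and 67.7 CPM under trastuzumab and at 22.8, 29.6 and 20.3 CPM with afatinib (log2FC -1.51 ± 0.19, adjusted p = 4.27e-07). It was the only gene called among 13 of this group. The ubiquitin ligases CBL and CBLB and the 3 LRIG genes lay between -0.17 and 0.18 and did not pass the test, while GAB1 (0.39) and SOS1 (0.34), which couple receptors to downstream signaling, were higher and SOCS5 (-0.39) was lower at an adjusted p below 0.05.

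Immediate early transcription factors were lowered as well. EGR1 (ENSG00000120738, chr5:138465490-138469315), a zinc finger factor induced within minutes by growth factors, was at 108.4, 96.6 and 114.6 CPM under trastuzumab and at 6.59, 10.5 and 7.12 CPM with afatinib. The groups were separated in all 3 pairs (log2FC -3.71 ± 0.31, adjusted p = 2.13e-10). FOSL1 (ENSG00000175592, chr11:65892049-65900573), an AP-1 subunit that is regulated by ERK and had the highest level among the 12 genes named for their decrease, was at 417.5, 424.0 and 345.1 CPM and decreased to 87.4, 99.8 and 57.7 CPM (log2FC -2.30 ± 0.25, adjusted p = 3.77e-08). MYC, a transcription factor of growth and metabolism, went from 57.2, 67.8 and 40.1 CPM to 14.1, 18.3 and 10.1 CPM (log2FC -1.96 ± 0.16, adjusted p = 1.04e-10). The trastuzumab library 3 was the lowest of its group for MYC, and its pair was the lowest of the other group.

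Of the 16 genes of this list that were tested, 7 were called lower and 0 higher. At an adjusted p below 0.05, 11 were lower and 1 higher (median log2FC -1.13). FOSB and JUNB were not among the genes tested. The further genes called lower were EGR3 (-2.07), EGR4 (-1.93), IER3 (-1.89) and FOS (-1.57). FOS was at 14.9, 17.8 and 15.2 CPM under trastuzumab and at 4.79, 7.77 and 3.77 CPM with afatinib. JUN (-0.75), IER2 (-0.88), IER5 (-0.70) and FOSL2 (-0.19) were lower without reaching the fold threshold, and JUND (0.18, adjusted p = 0.0409) was higher. EGR2 was at -1.38 but did not pass the test (adjusted p = 0.0653), nor did ATF3, NAB1 and NAB2. Of the 10 ETS family factors tested, 2 were called lower, namely ETV5 (-1.17) and ETS1 (-1.01). The median log2FC of -0.09 was near that of all genes, and ETV4 and ERF were not tested. ETV1 (-0.91) and ELK3 (-0.50) were lower and ELF3 (0.41), an epithelial ETS factor, was higher at an adjusted p below 0.05. The call of ETS1 was lost when the replicates numbered 3 were left out and with libraries scaled by their totals.

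**Figure D2:**
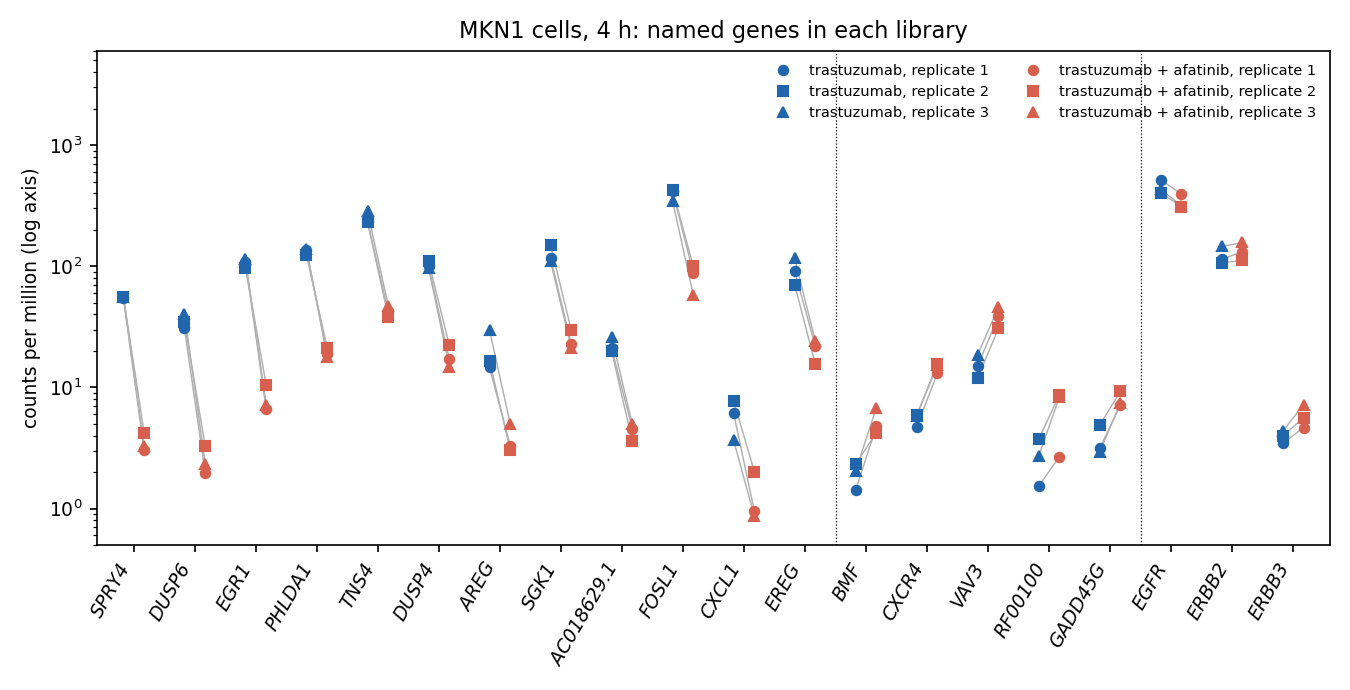
CPM (log axis) of named genes in each of the 6 libraries. The 12 genes with the largest decreases are on the left and the 5 with increases in the middle. Both were taken among called genes with a mean log2 CPM above 1 and the same direction in all 3 pairs. The receptor genes EGFR, ERBB2 and ERBB3 are on the right. Trastuzumab is in blue and trastuzumab + afatinib in orange, with symbols for the replicate number and lines joining same-numbered libraries. All 3 lines of the 12 genes on the left slope downwards and the groups do not overlap, whereas RF00100 overlaps between the groups and the lines of ERBB2 are almost flat.

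The remaining genes with large decreases included a focal adhesion protein and a survival kinase. PHLDA1 (ENSG00000139289, chr12:76025447-76033932), a pleckstrin homology domain protein induced by growth factors, was at 135.1, 122.7 and 138.9 CPM and decreased to 18.8, 21.2 and 17.7 CPM (log2FC -2.78 ± 0.24, adjusted p = 4.98e-10). TNS4 (ENSG00000131746, chr17:40475828-40501597), a tensin of focal adhesions that is associated with cell motility, was at 235.0, 232.3 and 283.4 CPM and decreased to 42.4, 38.2 and 47.3 CPM (log2FC -2.55 ± 0.23, adjusted p = 6.58e-10). In both genes, the spread within a group was small compared with the distance between the groups. AC018629.1 (ENSG00000279806, chr17:40473554-40475289) lies next to TNS4 on the same strand, and its reads may derive from the same transcript. It was at 21.04, 20.03 and 26.1 CPM and decreased to 4.57, 3.61 and 4.97 CPM (log2FC -2.35 ± 0.24, adjusted p = 1.14e-08). SGK1 (ENSG00000118515, chr6:134169246-134318112), a serum and glucocorticoid regulated kinase related to AKT, decreased from 117.0, 149.1 and 110.1 CPM to 22.8, 29.6 and 21.1 CPM (log2FC -2.36 ± 0.18, adjusted p = 3.36e-11). Its 3 pairs differed by -2.36, -2.33 and -2.38 on the log2 scale. Of the list of 15 growth factor response genes around PHLDA1, 4 were called lower and 0 higher, including the AP-1 related factor MAFF (-1.85) and the pseudokinase TRIB2 (-1.17), with a median log2FC of -0.57.

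Among the EGFR ligands, amphiregulin, epiregulin and HB-EGF were called lower. AREG (ENSG00000109321, chr4:74445134-74455009), amphiregulin, was at 14.6, 16.6 and 29.6 CPM under trastuzumab and at 3.29, 3.03 and 4.99 CPM with afatinib. The trastuzumab library 3 was the highest, and so was its pair among the afatinib libraries (log2FC -2.40 ± 0.22, adjusted p = 7.73e-10). EREG (ENSG00000124882, chr4:74365143-74388751), epiregulin, was at 90.8, 70.5 and 116.1 CPM and decreased to 21.9, 15.5 and 24.0 CPM (log2FC -2.17 ± 0.25, adjusted p = 7.99e-08). HBEGF was at 53.0, 62.9 and 38.9 CPM and at 24.0, 27.3 and 15.5 CPM with afatinib (log2FC -1.22 ± 0.22, adjusted p = 0.000204), again without overlap. These were the 3 genes called lower of 11 ligands tested, while TGFA (-0.76, adjusted p = 1.21e-09) did not reach the fold threshold. EGF, BTC, EPGN and the 4 neuregulin genes NRG1 to NRG4 did not pass the test.

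The receptors themselves did not reach the fold threshold. EGFR was at 516.8, 403.6 and 429.7 CPM under trastuzumab and at 393.5, 310.9 and 316.5 CPM with afatinib, so that the groups did not overlap (log2FC -0.40 ± 0.08, adjusted p = 0.00104). ERBB2, the target of trastuzumab, was at 114.5, 106.6 and 145.5 CPM and at 131.3, 111.5 and 157.0 CPM, with overlapping groups and a log2FC of 0.13 (95% confidence interval -0.15 to 0.41, adjusted p = 0.647). ERBB3 was at 3.45, 3.95 and 4.35 CPM and at 4.66, 5.63 and 7.20 CPM (log2FC 0.57 ± 0.11, adjusted p = 0.00052). ERBB4 did not pass the test (log2FC -0.54, adjusted p = 0.313).

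Of the secreted chemokines and cytokines, 3 of 11 tested in each list were called lower. CXCL1 (ENSG00000163739, chr4:73869393-73871242), a chemokine that attracts neutrophils through CXCR2, was at 6.14, 7.75 and 3.66 CPM under trastuzumab and at 0.95, 2.02 and 0.86 CPM with afatinib (log2FC -2.21 ± 0.22, adjusted p = 3.82e-09). CXCL8 (interleukin 8), which acts on the same receptor, went from 11.4, 14.0 and 8.14 CPM to 2.41, 3.67 and 1.79 CPM (log2FC -2.10 ± 0.15, adjusted p = 3.36e-11). CCL2, which attracts monocytes, decreased from 7.27, 10.1 and 6.22 CPM to 2.41, 3.87 and 1.56 CPM (log2FC -1.61 ± 0.13, adjusted p = 1.56e-10). Library 2 was the highest of both groups for all 3 chemokines. These were the chemokines called lower of 11 tested (median log2FC -0.63), whereas CCL28 was higher (0.39, adjusted p = 0.000421) and CXCL2, CXCL3, CXCL5 and CXCL6 lay between -0.75 and -0.36 and did not pass the test. Of 11 interleukins and cytokines tested, 3 were called lower. CSF2 (GM-CSF) went from 3.28, 4.38 and 2.61 CPM to 0.57, 0.65 and 0.42 CPM (log2FC -2.63 ± 0.29). The interleukin 6 family members LIF and IL11 had a log2FC of -1.65 ± 0.12 and -1.39 ± 0.13. IL6, IL1A, IL1B and IL24 did not pass the test.

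Receptors of cytokines and growth factors were mostly below the fold threshold, with 1 of 22 called higher (CXCR4, described below) and 0 called lower. At an adjusted p below 0.05, 7 of them were lower, among them IL7R (-0.83), IL4R (-0.60), OSMR (-0.52), MET (-0.48), IL1RAP (-0.48) and TGFBR2 (-0.42). Of 17 genes of the Toll-like receptor and NF-kB feedback list, the lipopolysaccharide receptor TLR4 was called lower (-1.10), and the apoptosis inhibitor BIRC3 (-0.86) and TNFAIP3 (-0.58) were among 7 lower genes at an adjusted p below 0.05. TLR3 was higher (0.94, adjusted p = 0.00374), with overlapping groups.

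Genes related to cell motility were examined because the study followed the movement of these cells. Of the 14 motility genes listed by the study, 11 were called lower and 1 higher, with a median log2FC of -1.27. The study chose these genes because afatinib and trastuzumab + afatinib each changed them in MKN1 cells at 4 h. The list thus rests in part on the Tra + Afa libraries compared here, so its direction is not independent evidence. Apart from genes already named, the list contains tissue factor F3, which decreased from 409.5, 419.8 and 283.1 CPM to 128.7, 130.7 and 80.4 CPM (log2FC -1.72 ± 0.14). It also contains the prostaglandin synthase PTGS2 (-1.67), CYR61 (-1.42), the protease activated receptor F2RL1 (-1.16) and the lipid phosphatase PLPP3 (-1.03). HAS2, a hyaluronan synthase, was below 1 CPM in all 6 libraries (log2FC -1.33, adjusted p = 0.0202), and its call was lost without the replicate block and in 5 of the fits that left out libraries. The integrin subunit ITGA2 (-0.98) passed the adjusted p only. SEMA6D, a semaphorin, was the gene called higher, at 1.01, 0.91 and 0.90 CPM under trastuzumab and at 1.92, 2.002 and 1.917 CPM with afatinib (log2FC 1.05 ± 0.24, adjusted p = 0.00232). In the separate list of adhesion, coagulation and matrix genes, 2 of 18 were called lower. These were TNS4 and thrombomodulin (THBD, log2FC -1.002), which lies on the fold threshold and lost its call without the block. The urokinase receptor PLAUR (-0.75), CD44 (-0.37), ITGB4 (-0.34) and ITGA3 (-0.31) were lower at an adjusted p below 0.05 and TNS3 (0.27) was higher.

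YAP target genes, which respond to cell shape and adhesion, included 3 genes called lower of 8. CTGF went from 121.7, 112.7 and 58.6 CPM to 34.0, 34.8 and 18.3 CPM (log2FC -1.74 ± 0.17) and ANKRD1 from 12.7, 14.95 and 6.24 CPM to 2.93, 4.84 and 2.13 CPM (log2FC -1.78 ± 0.16). CYR61, counted in both lists, went from 432.4, 462.0 and 260.5 CPM to 155.8, 180.5 and 97.0 CPM (log2FC -1.42 ± 0.14). In all 3 genes replicate 3 was the lowest of its group under both treatments. AMOTL2 (-0.51) and NUAK2 (-0.61) passed the adjusted p only, and AJUBA, LATS2 and AXL did not pass the test.

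**Figure D3:**
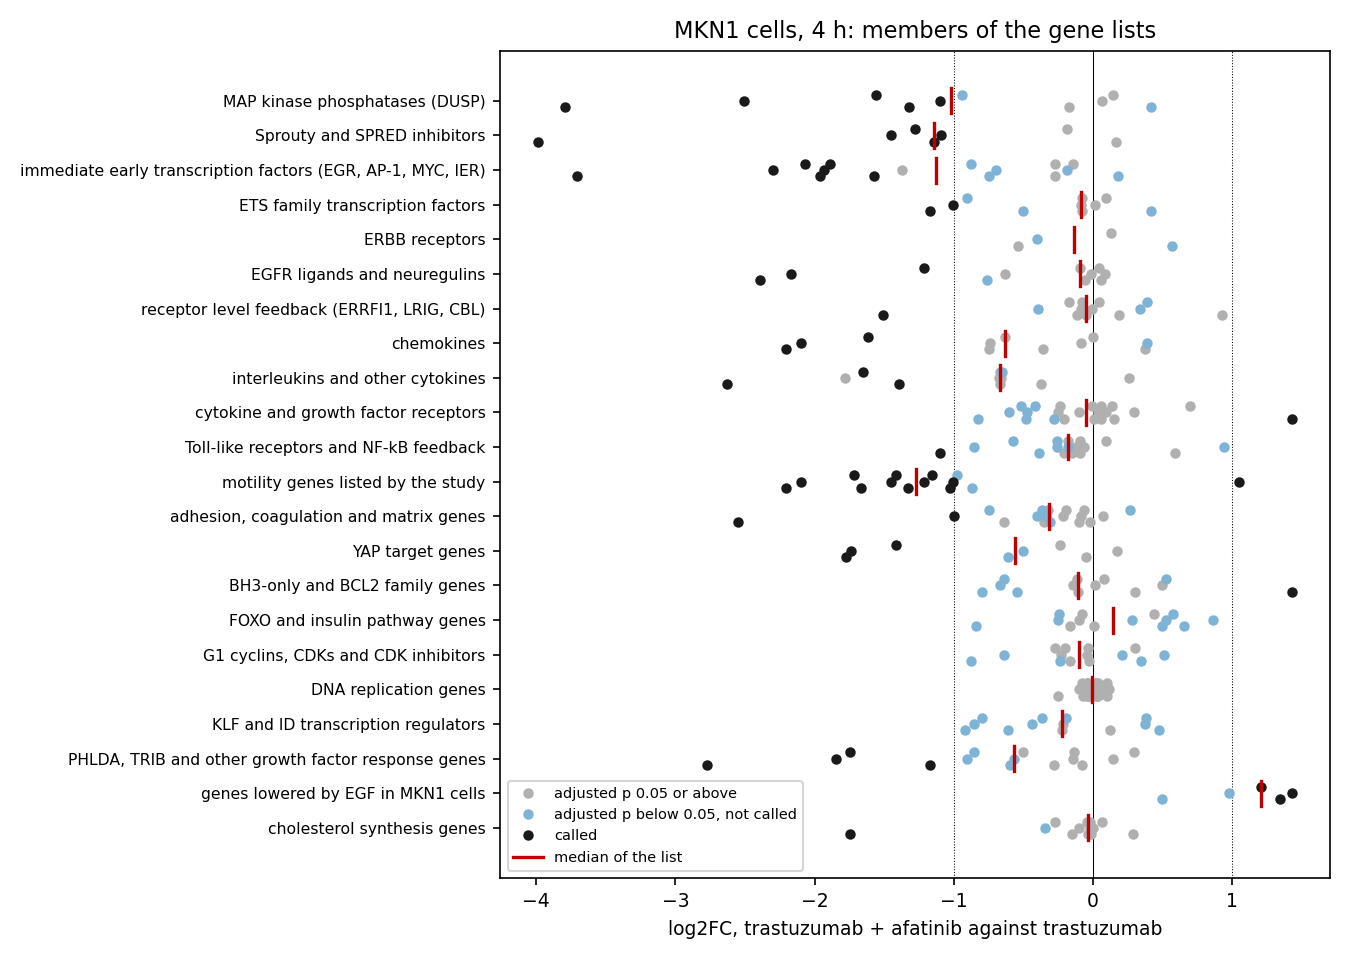
Log2FC of trastuzumab + afatinib over trastuzumab at 4 h (x axis) for each tested member of the 22 gene lists (y axis), in black for called genes, in blue for genes with an adjusted p below 0.05 only and in grey for the others, with the median of each list as a red line. The medians of the DUSP, Sprouty, immediate early and motility lists lie below -1, and the members of the DNA replication list lie close to 0. The motility list was chosen by the study in part on the Tra + Afa libraries shown here.

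Of the increases, 5 were at a mean log2 CPM above 1, with a log2FC between 1.13 and 1.43. BMF (ENSG00000104081, chr15:40087890-40108892), a proapoptotic BH3-only protein, was at 1.42, 2.32 and 2.05 CPM under trastuzumab and at 4.77, 4.24 and 6.82 CPM with afatinib. The groups did not overlap (log2FC 1.43 ± 0.31, adjusted p = 0.00145), and the call was lost when the replicates numbered 3 were left out. CXCR4 (ENSG00000121966, chr2:136114349-136118165), the receptor of the chemokine CXCL12, was at 4.72, 5.87 and 5.81 CPM and increased to 13.1, 15.7 and 15.4 CPM (log2FC 1.43 ± 0.12, adjusted p = 2.45e-10). VAV3 (ENSG00000134215, chr1:107571160-107965144), a guanine nucleotide exchange factor, was at 15, 11.98 and 18.6 CPM and increased to 38.8, 30.7 and 46.1 CPM (log2FC 1.35 ± 0.12, adjusted p = 2.45e-10). The 3 pairs differed by 1.46, 1.41 and 1.40 on the log2 scale for CXCR4 and by 1.37, 1.35 and 1.31 for VAV3. GADD45G (ENSG00000130222, chr9:89605013-89606555), a stress response gene, was at 3.15, 4.88 and 2.94 CPM and at 7.13, 9.32 and 7.41 CPM with afatinib (log2FC 1.13 ± 0.23, adjusted p = 0.000726). RF00100 (ENSG00000202198), a small RNA gene whose name is shared by several annotated copies among which reads may be split, overlapped between the groups, with 1.53, 3.73 and 2.71 CPM against 2.69, 8.70 and 8.34 CPM (log2FC 1.24 ± 0.41, adjusted p = 0.0441). Its call was lost without the replicate block and in every fit that left out a library or a replicate number.

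Of 13 BH3-only and BCL2 family genes tested, BMF was the only gene called. The survival genes MCL1 (-0.79), BCL2L1 (-0.64) and BCL2 (-0.55) were lower at an adjusted p below 0.05, as was the proapoptotic PMAIP1 (-0.67), whereas the proapoptotic BBC3 (0.53) was higher and BCL2L11 (BIM) was at 0.01 (adjusted p = 0.922). MCL1 was at 619.1, 633.0 and 665.9 CPM under trastuzumab and at 364.0, 373.5 and 367.8 CPM with afatinib. Of 14 genes of the FOXO and insulin pathway, 0 were called, and 6 were higher and 3 lower at an adjusted p below 0.05. The higher genes included TXNIP (0.86), an inhibitor of glucose uptake and thioredoxin, FOXO6 (0.65), CCNG2 (0.57) and FOXO4 (0.53), and the lower genes included the insulin receptor substrate IRS1 (-0.84). A list of 5 genes lowered by EGF in MKN1 cells, chosen from these data, had 3 genes called higher, namely CXCR4, VAV3 and the protocadherin PCDH18 (1.21), and RNF144B (0.98) and PPARGC1A (0.49) were higher at an adjusted p below 0.05.

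CCND1 (cyclin D1) was at 1125, 883.0 and 892.4 CPM under trastuzumab and at 660.9, 446.1 and 483.7 CPM with afatinib (log2FC -0.88 ± 0.16, adjusted p = 0.000155). Among the 14 G1 cyclins, CDKs and inhibitors tested, 0 were called. The CDK inhibitors CDKN1C (0.51), CDKN2C (0.34) and CDKN1B (0.21) were higher and CDKN1A (-0.64) and CCNE1 (-0.24) were lower at an adjusted p below 0.05. Of 26 DNA replication genes, 0 passed an adjusted p of 0.05 in either direction. Their log2FC ranged from -0.25 to 0.11 with a median of -0.01, and the median of the same genes at 24 h was -0.44. Of 13 KLF and ID regulators, 0 were called, 7 were lower, led by KLF2 (-0.92), ID1 (-0.85) and KLF6 (-0.80), and 3 were higher, namely ID3 (0.47), KLF9 (0.38) and ID2 (0.37), at an adjusted p below 0.05.

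To ask whether the afatinib effect depended on trastuzumab, the comparison was set beside afatinib alone against untreated cells at 4 h, which uses 6 other libraries. In that comparison 214 genes were called (1.08%). Of the 169 genes called in the presence of trastuzumab, 100 were also called there, all in the same direction, which is 59.2% of the 169 and 46.7% of the 214. Of the 116 genes called lower, 114 were below 0 with afatinib alone, against 48.5% of all genes tested. Their median log2FC was -1.42 with and -1.28 without trastuzumab. Of the 53 genes called higher, 47 were above 0, and their median was 1.32 with and 0.69 without trastuzumab. Both medians with trastuzumab come from the libraries that selected the genes.

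The difference between both effects was tested directly, and 0 of the 19815 genes had an adjusted p below 0.05 in edgeR (0%). An unadjusted p below 0.05 was obtained for 426 genes, where 991 correspond to 0.05 of the genes tested, and for 14 of the 169 called genes. As 426 lies below 991, the test was cautious for this contrast, and 0 genes does not show that the effects were equal. DESeq2 also found 0 genes at an adjusted p below 0.05. For the 86 called genes with a mean log2 CPM above 1, the 95% confidence interval of the difference extended to either side by a median of 0.41 on the log2 scale, ranging from 0.22 to 1.16. This interval lay within -1 and 1 for 79 of the 86 genes. SPRY4 had a log2FC of -3.99 with and -3.76 without trastuzumab, a difference of -0.23 (95% confidence interval -1.13 to 0.67). For EGR1 the difference was -0.17 (-1.03 to 0.69), for SGK1 -0.02 (-0.52 to 0.47) and for CXCR4 0.03 (-0.32 to 0.38). RF00100 was the exception among the named genes, with 1.24 with and -0.89 without trastuzumab. Trastuzumab alone against untreated cells gave 0 called genes in edgeR (0%) and in DESeq2. An unadjusted p below 0.05 was obtained in edgeR for 473 genes, again below 991. The 0 called genes therefore do not show that trastuzumab had no effect. The comparison of trastuzumab with untreated cells shares the trastuzumab libraries with the main one.

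**Figure D4:**
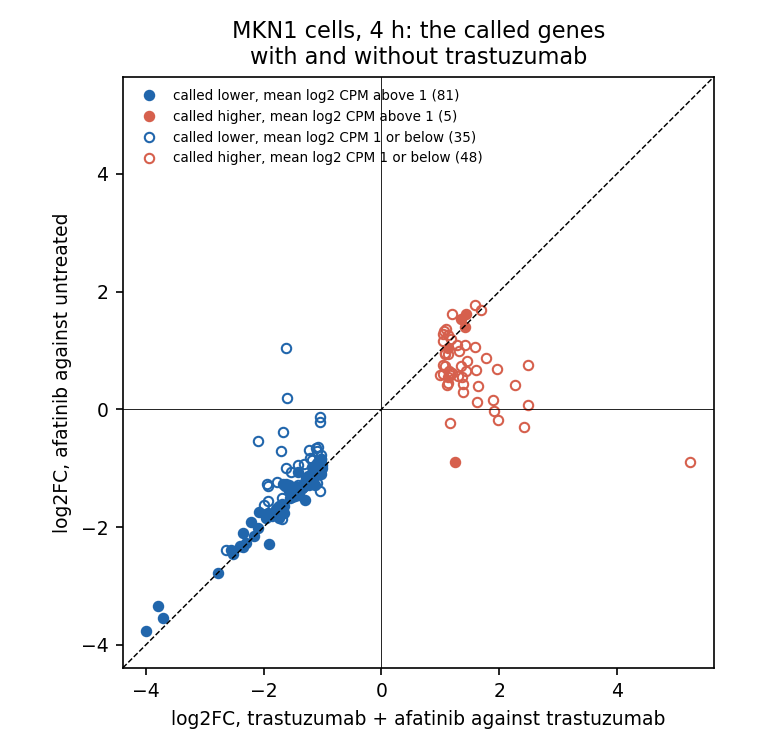
Log2FC of trastuzumab + afatinib over trastuzumab (x axis) against the log2FC of afatinib over untreated cells (y axis) at 4 h for the 169 called genes, filled for the 86 genes with a mean log2 CPM above 1 and open for the others, with a dashed line of equal effects. The 81 filled blue points lie near the line, whereas the open orange points of low genes are scattered on both sides of it, most of them below.

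EGF, a ligand of EGFR, was examined in further libraries as stimulation of the same receptor. The untreated libraries it was compared with were also the reference for afatinib alone. EGF against untreated cells at 4 h gave 392 called genes (1.98%), of which 306 were higher and 86 lower. Of the 169 genes, 71 were called in both comparisons (42.01% of the 169 and 18.1% of the 392), and all 71 had opposite directions. Of the 116 genes called lower, 6 were below 0 with EGF, against 49.98% of all genes tested, and 110 were above 0. Of the 116, 67 were called higher with EGF, against 306 of all 19815 genes, and the median log2FC with EGF was 1.15. AREG increased with EGF by a log2FC of 2.28, CSF2 by 2.74, CXCL8 by 1.94, DUSP6 by 1.85 and SPRY4 by 1.62. EGR1, in contrast, was at 95.9 ± 41.2 CPM (SD, n = 3) in untreated and at 145.2 ± 24.7 CPM in EGF treated cells and did not pass the test (log2FC 0.63, adjusted p = 0.106). FOS, SPRY1 and ETV5, also among the 116, were near 0 with EGF (log2FC -0.002, 0.005 and -0.063). CXCR4 and VAV3 were called lower with EGF, at -1.495 and -1.469.

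After 24 h of treatment, trastuzumab + afatinib against trastuzumab gave 987 called genes (4.98%), 738 higher and 249 lower. Of the 169 genes called at 4 h, 71 were called again at 24 h (42.01% of the 169 and 7.19% of the 987), 70 of them in the same direction. A test of the difference between both time points passed an adjusted p of 0.05 for 3855 of all genes (19.5%) and for 51 of the 169 (30.2%). Without the replicate block, 820 of all genes passed. Of the genes lowered at 4 h, 35 were less lowered and 5 more lowered at 24 h, and of the genes raised at 4 h, 11 were less raised. The 4 h libraries that selected these genes also enter the difference, which favours smaller effects at 24 h. The log2FC of SPRY4 was -3.99 at 4 h and -4.01 at 24 h, a difference of -0.02 (95% confidence interval -1.01 to 0.96), and that of EGR1 was -3.71 and -3.82, a difference of -0.11 (-0.97 to 0.75). DUSP4 had -2.51 and -2.73, a difference of -0.22 (-0.80 to 0.37). For these genes the trastuzumab libraries were spread widely at 24 h, with EGR1 at 135.5 ± 105.6 CPM and SPRY4 at 23.9 ± 19.2 CPM (SD, n = 3).

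By contrast, NAV3, a microtubule associated neuron navigator, was lower at 4 h (-1.45 ± 0.12) and higher at 24 h (0.61 ± 0.12). BIRC3, an inhibitor of apoptosis regulated by NF-kB, was at 49.9, 56.9 and 76.4 CPM and at 27.6, 31.2 and 42.5 CPM at 4 h (-0.86 ± 0.07), and at 24 h rose from 19.1 ± 4.86 to 31.9 ± 5.04 CPM (0.75 ± 0.07). CCL2 and CXCL1 had a log2FC of 0.16 and -0.68 at 24 h and did not pass the test there. LRP2 (megalin), an endocytic receptor, was at -0.06 at 4 h (adjusted p = 0.859) and was called higher at 24 h (2.15 ± 0.11, adjusted p = 9.91e-16). The protocadherin PCDH7 was at -0.25 at 4 h and at 0.67 at 24 h, both at an adjusted p below 0.05. BMF was called higher at 24 h too, at 14.9 ± 7.90 against 55.3 ± 4.86 CPM (log2FC 1.98 ± 0.21).

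**Figure D5:**
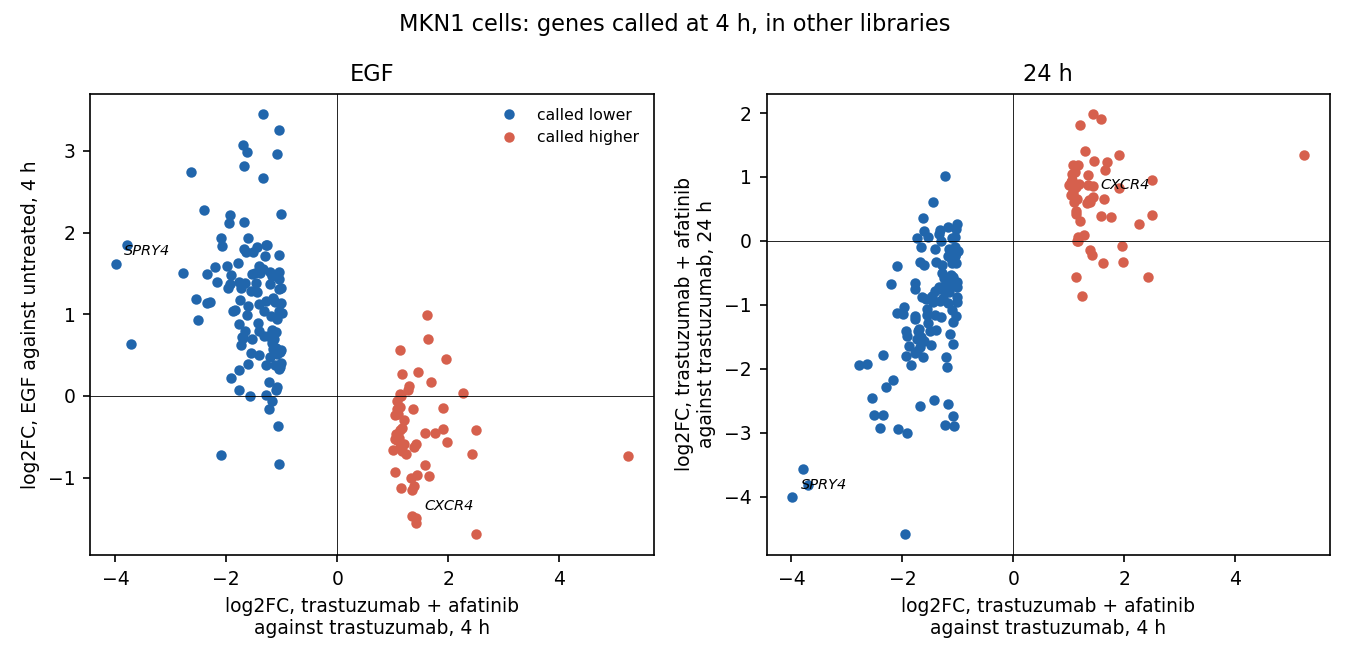
Log2FC of trastuzumab + afatinib over trastuzumab at 4 h (x axis) for the 169 called genes against the log2FC of EGF over untreated cells at 4 h (left) and against trastuzumab + afatinib over trastuzumab at 24 h (right), with genes called lower in blue and called higher in orange. With EGF, 6 of the 116 blue points lie below 0, against 49.98% of all genes tested, and at 24 h 102 of them lie below 0, against 48.6% of all genes.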

How the data were processed

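MKN1 cells were sequenced as mRNA libraries (directional kit) in 7 treatments, 2 time points and 3 replicates, 42 libraries in all. Per the labels, the authors used Trim Galore, STAR and hg38, and the deposited files hold raw counts, 1 value per Ensembl identifier; the counting tool, its strand setting and all versions are not given in the sources used here. Symbols came from GENCODE release 29 (GRCh38). It does not contain 8404 of the 65217 identifiers, which held 0.0366% of the counts in the 6 libraries compared. Protein coding genes held 98.6%, and mitochondrial genes 0 counts. The 90 libraries of other cell lines were not used here.

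The test was edgeR's quasi-likelihood test (version 4.0.16, R 4.3.3) after TMM scaling and filterByExpr (at least 10 counts, total of 15). A single model of all 42 libraries had a mean for each treatment at each time, and the replicate number within each time point as block. Printed CPM values are TMM-scaled, except those of the cell type markers and of 3 counts, which are scaled by library totals. The log2 CPM used a prior count of 2. Calls needed an adjusted p below 0.05 together with a log2FC beyond 1 in size; differences between effects needed the adjusted p alone. Same-numbered libraries of both groups deviated together from their group means (Pearson r 0.316 to 0.371 across 19815 genes, against -0.243 to -0.104 for other pairs), and the titles give the numbers. Replicates were described as biological triplicates, and no library compared was identical to another replicate of its group.

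Up to 12 decreases and 12 increases with the largest log2FC were named among called genes with a mean log2 CPM above 1 and the same direction in 3 pairs. Also named were the receptor genes EGFR, ERBB2 and ERBB3, called or adjusted-p members of 22 gene lists (275 of 301 genes tested) and up to 5 genes per difference test. Some results are not reported here. Other genes were named after their values were seen. The comparison and the lists were chosen with earlier results of these data known. Alternatives were fits without the block, on fewer libraries, with DESeq2 1.42.0, with other scaling or filters and without single libraries. The procedure was tested on simulated counts with 200 changed genes. Figures were drawn with matplotlib 3.10.9 in Python 3.11.15.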

Additional observations from a re-analysis of the deposited data

Results flagged for a closer look

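The effect of adding afatinib to trastuzumab differed between 24 h and 4 h for the following genes, by edgeR's test of the difference across all genes at an adjusted p below 0.05. The log2FC at 24 h exceeded that at 4 h by 2.21 for LRP2, by 2.07 for NAV3, by 1.61 for BIRC3, by 1.53 for CXCL1 and by 0.92 for PCDH7. It was smaller at 24 h by 0.75 for CXCR4 (a difference of -0.75), which remained above 0 at both times. For RF00100 the difference was -2.11, with overlapping groups at 4 h and the doubt about its reads given above.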

How the results depend on the processing

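The counts of called genes depended on the block and on the low-count filter. Without the replicate block, 27 in place of 53 genes were called higher, 135 in place of 214 with afatinib alone, and 820 in place of 3855 differed between 24 h and 4 h. DESeq2 called 34 genes higher and library totals alone 101. With at least 10 counts in every library, 105 genes were called in place of 169, 17 of them higher, 106 with afatinib alone and 210 in place of 392 with EGF, since fewer genes were tested (15169). Leaving out single libraries or a replicate number gave 120 to 184 called genes, 29 to 64 higher and 90 to 121 lower. It also gave 212 to 220 with afatinib alone, 386 to 399 with EGF, 2711 to 3263 differences between times, and 87 to 97 genes called with and without trastuzumab. The lowest total of called genes, 120, and 30 called higher came without the replicates numbered 3, and 29 called higher without those numbered 1. The 0 counts for trastuzumab alone and for the difference between the effects with and without it were 0 in these fits too. An adjusted p below 0.05 was reached by 2159 genes in the reported fit, 610 without the block, 4722 on the 21 libraries of 4 h, 5111 on the 6 libraries compared and 915 to 1539 when libraries were left out. The log2FC of ERBB2 ranged from -0.011 to 0.302 over the fits that left out libraries and was below 0 only without the trastuzumab replicate 2 (adjusted p = 0.982), and on the 6 libraries compared its 0.13 had an adjusted p of 0.00163. Without the block, THBD, HAS2 and RF00100 lost their call and 41 of 134 named genes lost their side of the threshold, mostly members with small changes. THBD also lost its call under 4 further changes of scaling, filter or samples used. Genes under about 1 CPM, which hold most increases, are limited by counts.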
